A study of Homo sapiens with 4 samples.

Results

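The genes described here are 9 proteoglycan core proteins (VCAN, HSPG2, DCN, LUM, BGN, CSPG4, SDC1, SDC2 and GPC1) and the hyaluronan receptor CD44. They were taken by symbol from deposited tables of 23444 gene entries, in which each of the 10 symbols matched 1 entry. The 4 RNA libraries all came from U87-MG, a long-established line of human glioblastoma cells. In 2 libraries (shCON) the cells carried a negative control hairpin, and in the other 2 (shMAGED2) a short hairpin RNA against MAGED2, a member of the melanoma antigen family on the X chromosome. All cells were grown in MEM with penicillin and streptomycin. The series design calls the knockdown stable, whereas the treatment protocol names ZDHHC15 as the hairpin target, with transient transfection of a GIPZ lentiviral vector plasmid and harvest after 36 h. The labels give neither the number of hairpins nor whether the cells were a clone or a pool, and do not tell whether replicates were grown separately, so the p-values rest on a spread that may be technical.

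A proteoglycan is a core protein that carries long, negatively charged glycosaminoglycan chains, either chondroitin or dermatan sulfate, heparan sulfate or keratan sulfate. Secreted members space and hydrate the extracellular matrix or form part of basement membranes, while membrane-bound members hold growth factors at the cell surface and act as co-receptors. Brain matrix is rich in hyaluronan and in chondroitin sulfate proteoglycans that bind it, and gliomas are known for abundant versican and CD44.

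The total count was 28673774 to 36234336 per library. MAGED2 (chromosome X, 54807599 to 54816012, hg38) was at 175 and 178 CPM in shCON and at 17.9 and 21.7 CPM in shMAGED2, or 11.2% of the control level (CPM, counts scaled to the TMM-adjusted library total). ZDHHC15 had 0 counts in every library, where the limit set by 3 counts was 0.0817 to 0.102 CPM (counting error only). The 2 shMAGED2 libraries differed from each other more (chi-square per degree of freedom 89.48) than the 2 shCON libraries (7.42), both above sampling noise. Of the glioma and glial markers, VIM (7577 to 8802 CPM) and EGFR (215 to 249 CPM) were high, GFAP was at 0.95 to 3.03 CPM, AQP4 had 0 counts, and SOX2, S100B and FABP7 were below 0.5 CPM. In that list 5 of 9 genes were tested, of which NES rose and OLIG2 fell, the latter call being lost when either shCON library (replicate 1 or 2) was left out. Among 7 immune markers 3 were tested, with 0 called by edgeR or DESeq2 and 0 at an unadjusted p under 0.05; CD68, a lysosomal protein of macrophages, was at 380 to 602 CPM and made up nearly the whole sum of the list, while PTPRC was below 1 CPM and AIF1 had 0 counts. The epithelial list had 3 tested and 0 called by edgeR or DESeq2, with 2 at an unadjusted p under 0.05 in edgeR and CDH1 at 0 counts. The endothelial list had 3 tested and 1 lower (KDR, not called with shCON replicate 1 or 2 left out), and the neuronal list 3 tested and 1 lower (MAP2).

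Matrix and cell-surface proteoglycan transcripts moved in both directions after the knockdown. VCAN, CSPG4 and SDC1 rose, HSPG2, DCN, LUM and SDC2 fell, and GPC1 and CD44 did not pass the test. BGN had no counts. With the edgeR quasi-likelihood test and Benjamini-Hochberg adjustment over 15293 genes (threshold 0.05), 3 of the 9 genes tested rose and 4 fell. Over all genes tested 12.3% rose and 11.6% fell, 23.9% in all. The set was chosen with earlier results of these data known, so this comparison is a description. Of the 9, 4 (VCAN, HSPG2, DCN and LUM) were both called and changed at least 2-fold, as were 9.05% of all genes. The median log2 change was −0.30 over the 9 genes and 0.00 over all. The 2 groups did not overlap for any of the 9 genes, as for 66% of all genes tested. Without shCON replicate 1 the count was 1 higher and 2 lower, and without shCON replicate 2 it was 1 higher and 3 lower. Fits that leave out a library assume that the lone library of its group varies like the other group. In bulk RNA, fewer cells that express a gene and less RNA per cell cannot be told apart.

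**Figure D1:**
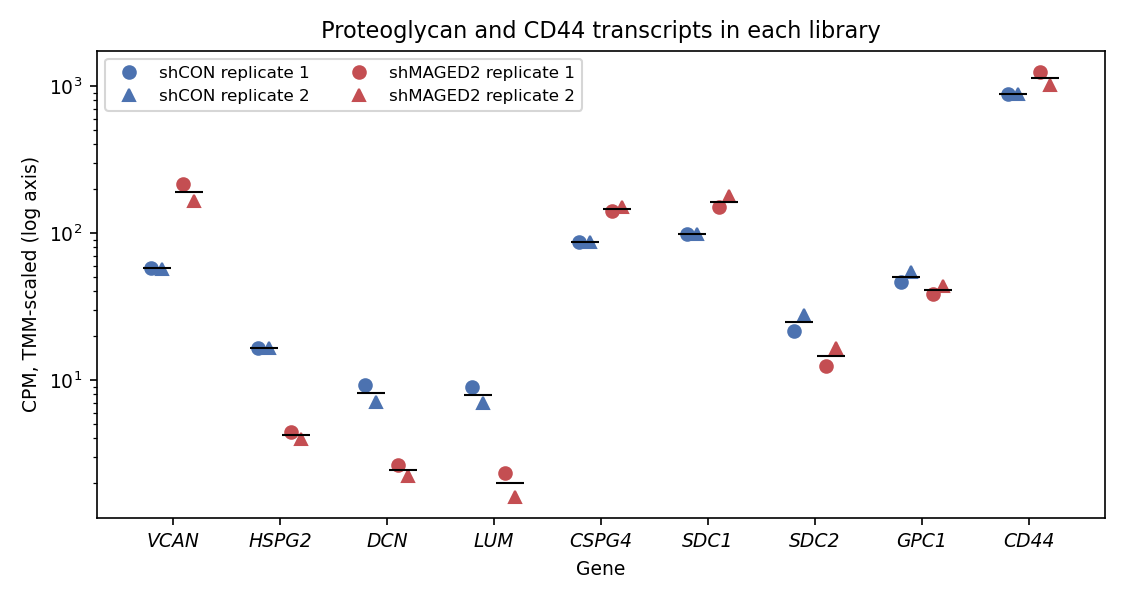
TMM-scaled CPM on a log axis for each of the 9 genes with counts, with 1 point per library (blue shCON, red shMAGED2, circles replicate 1, triangles replicate 2) and a bar at the mean of each group. VCAN lies at 56.6 and 58.0 CPM in shCON and at 166 and 216 CPM in shMAGED2, while HSPG2, DCN and LUM lie lower in both shMAGED2 libraries. BGN, with 0 counts, is not drawn.

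The sequences before the gene starts are shown for a pair of genes that rose, SDC1 and CSPG4, for HSPG2, which fell, and for GPC1, which did not pass the test. They are the 250 bases upstream of the RefSeq gene start (GRCh38.p14), 5′ to 3′ on the gene's strand. Capitals mark the GC box, GGGCGG or its reverse complement CCGCCC, the core of sites bound by Sp1-type factors.
SDC1 (chr2:20225476-20225725, minus strand): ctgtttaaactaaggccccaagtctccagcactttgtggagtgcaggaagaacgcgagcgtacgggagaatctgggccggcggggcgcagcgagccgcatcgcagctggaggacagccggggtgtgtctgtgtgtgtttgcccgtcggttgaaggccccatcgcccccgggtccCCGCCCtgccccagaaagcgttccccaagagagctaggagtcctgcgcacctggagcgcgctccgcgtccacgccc
CSPG4 (chr15:75712849-75713098, minus strand): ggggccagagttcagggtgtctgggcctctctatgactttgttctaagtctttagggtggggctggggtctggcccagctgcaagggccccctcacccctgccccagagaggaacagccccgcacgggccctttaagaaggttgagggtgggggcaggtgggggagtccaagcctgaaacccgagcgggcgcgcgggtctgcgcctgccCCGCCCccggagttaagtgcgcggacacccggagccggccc
HSPG2 (chr1:21937311-21937560, minus strand): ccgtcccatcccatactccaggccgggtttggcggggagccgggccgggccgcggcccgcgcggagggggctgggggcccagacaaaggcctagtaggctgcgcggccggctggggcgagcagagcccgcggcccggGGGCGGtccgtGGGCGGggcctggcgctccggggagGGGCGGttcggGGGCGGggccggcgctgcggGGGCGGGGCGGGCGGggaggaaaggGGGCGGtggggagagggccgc
GPC1 (chr2:240435413-240435662, plus strand): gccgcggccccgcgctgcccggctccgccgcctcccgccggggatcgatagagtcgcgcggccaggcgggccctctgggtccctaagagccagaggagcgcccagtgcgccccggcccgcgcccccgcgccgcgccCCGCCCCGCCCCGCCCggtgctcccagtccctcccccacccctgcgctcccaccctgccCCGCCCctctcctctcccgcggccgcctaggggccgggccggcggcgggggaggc

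RefSeq entries were matched for 7 of the 10 genes, in 8 windows, since SDC1 has a second start. Counting both strands and every overlapping match, the GC box occurred once in the VCAN and CSPG4 windows and once in each SDC1 window. HSPG2 had 8 matches, BGN 5, GPC1 4 and CD44 2. All 7 genes held at least 1, against 42.6% of 35116 windows of the same length. The windows of these genes were 60.8% to 84.0% G and C, against a median of 58.0% over all windows. None of the 7 genes held the AP-1 letters TGANTCA, the E-box CACGTG, the TATA letters TATAAA or the TEAD letters GGAATG, which were present in 6.57%, 6.34%, 10.7% and 11.9% of all windows.

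Among the secreted proteoglycans of this set, VCAN was higher in shMAGED2 and the other 3 with counts were lower. VCAN encodes versican, a large chondroitin sulfate proteoglycan that binds hyaluronan (ENSG00000038427, chromosome 5, 83471465 to 83582303, plus strand). Counts of VCAN were 2025 and 1659 in the shCON pair against 6355 and 6096 in the shMAGED2 pair, or 58.0, 56.6, 216 and 166 CPM. Both knockdown libraries lay far above both controls, with replicate 1 the higher of the pair. VCAN rose from 57.3 ± 1.04 to 191 ± 35.2 CPM (SD, n = 2), 3.33-fold, a log2 change of 1.74 (SE 0.15; edgeR, Benjamini-Hochberg adjusted p = 0.00141). The FPKM values (fragments scaled to gene length and library total, the authors' own) were 5.10, 5.37, 18.2 and 15.8. VCAN passed the test in each of the 15 alternative fits, with log2 changes of 1.53 to 1.91.

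HSPG2 encodes perlecan, the large heparan sulfate proteoglycan of basement membranes (ENSG00000142798, chromosome 1, 21822245 to 21937297, minus strand). Counts of HSPG2 were 578 and 485 in the shCON pair against 130 and 146 in the shMAGED2 pair, or 16.6, 16.5, 4.41 and 3.98 CPM. The libraries of each group lay close together, and the groups were far apart. HSPG2 fell from 16.6 ± 0.020 to 4.20 ± 0.31 CPM (SD, n = 2), to 25.4% of the control, a log2 change of −1.98 (SE 0.18; edgeR, Benjamini-Hochberg adjusted p = 0.00173). It passed in each of the 15 alternative fits, of which log2(FPKM + 1) gave the smallest change, −0.83, on a scale that understates changes of low genes. In both FPKM fits and the 5 CPM fit, HSPG2 met the filter only through its shCON libraries, so these fits add no separate support. On the opposite strand it overlaps the coding gene LDLRAD2, and whether strand was used in counting is not stated.

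DCN and LUM encode decorin and lumican, small leucine-rich proteoglycans that bind collagen fibrils and regulate their assembly. They lie next to each other on chromosome 12, both on the minus strand (DCN, ENSG00000011465, 91140484 to 91183123; LUM, ENSG00000139329, 91102629 to 91111831). DCN had 323 and 206 counts in shCON and 78 and 81 in shMAGED2, or 9.26, 7.02, 2.65 and 2.21 CPM. LUM had 311 and 203 counts in shCON and 69 and 59 in shMAGED2, or 8.91, 6.92, 2.34 and 1.61 CPM. In CPM, shCON replicate 1 was the highest library and shMAGED2 replicate 2 the lowest for both genes. DCN fell from 8.14 ± 1.58 to 2.43 ± 0.31 CPM, a log2 change of −1.75 (SE 0.26; SD, n = 2; edgeR, Benjamini-Hochberg adjusted p = 0.00809). LUM fell from 7.92 ± 1.41 to 1.97 ± 0.52 CPM, a log2 change of −2.01 (SE 0.30; SD, n = 2; edgeR, Benjamini-Hochberg adjusted p = 0.00779). Ratios of the summed counts had exact 95% intervals of 0.243 to 0.349 for DCN and 0.198 to 0.294 for LUM, which cover counting error only. LUM passed in all 15 alternatives, and DCN in 14, missing the threshold without shCON replicate 1 (edgeR, Benjamini-Hochberg adjusted p = 0.0512). On the log2(FPKM + 1) scale the changes were −0.85 for DCN and −1.15 for LUM. Both genes met the filters of the FPKM fits and of the 5 CPM fit only through their shCON libraries.

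Markers of mesenchymal cells, which also make DCN and LUM, were measured beside them. Of 8 listed, 6 were tested by edgeR, and 3 were called lower and 0 higher by edgeR and by DESeq2. At an unadjusted p under 0.05, 0 were higher by edgeR and 1 by DESeq2. Summed levels were 1986 to 2028 CPM in shCON and 1334 to 1504 CPM in shMAGED2. FN1 made up most of this sum, at 1450 and 1412 CPM in shCON and 1256 and 991 CPM in shMAGED2. FN1, ACTA2 and TAGLN were not called by edgeR. COL1A1 fell by 1.54 (SE 0.13), PDGFRB by 1.12 (SE 0.12) and COL1A2 by 0.91 (SE 0.21) on the log2 scale, the last not called without shCON replicate 1 or 2. THY1 and COL3A1 were below 0.5 CPM in every library. COL3A1 had 0 counts in both shCON libraries and 10 and 8 in shMAGED2. THY1 had 0 and 4 counts in shCON and 6 and 0 in shMAGED2. The part of the mesenchymal markers in the lower DCN and LUM was not tested.

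BGN encodes biglycan, the closest relative of decorin (ENSG00000182492, chromosome X, 153494939 to 153509554, plus strand). With 0 counts in every library it lay under the same limit of 0.0817 to 0.102 CPM, and this depth could show no difference.

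Per unit length, the secreted genes of this set changed from a mixture to mostly VCAN. Of the summed FPKM of VCAN, HSPG2, DCN, LUM and BGN, VCAN made up 45.0% and 48.0% in shCON and 92.0% and 90.2% in shMAGED2. The share of the small leucine-rich genes (DCN, LUM and BGN) was 43.0% and 41.0% in shCON and 6.55% and 8.13% in shMAGED2. Within each pair the FPKM of DCN ran opposite to its CPM, at 1.97 and 2.34 FPKM in shCON and 0.59 and 0.91 in shMAGED2. Shares of single libraries carry this spread. HSPG2 went from 11.5% ± 0.74 to 1.56% ± 0.21 (SD, n = 2). The summed level was 11.3 ± 0.10 FPKM in shCON and 18.7 ± 1.56 FPKM in shMAGED2 (SD, n = 2). Secreted core proteins outside the set are left out of it. Among them are SPOCK1, at a mean of 16.6 FPKM in shCON and 28.9 in shMAGED2, and AGRN, at 14.6 and 16.6. Permuting 2 libraries against 2 cannot reach the threshold, so these shares are given without a test.

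**Figure D2:**
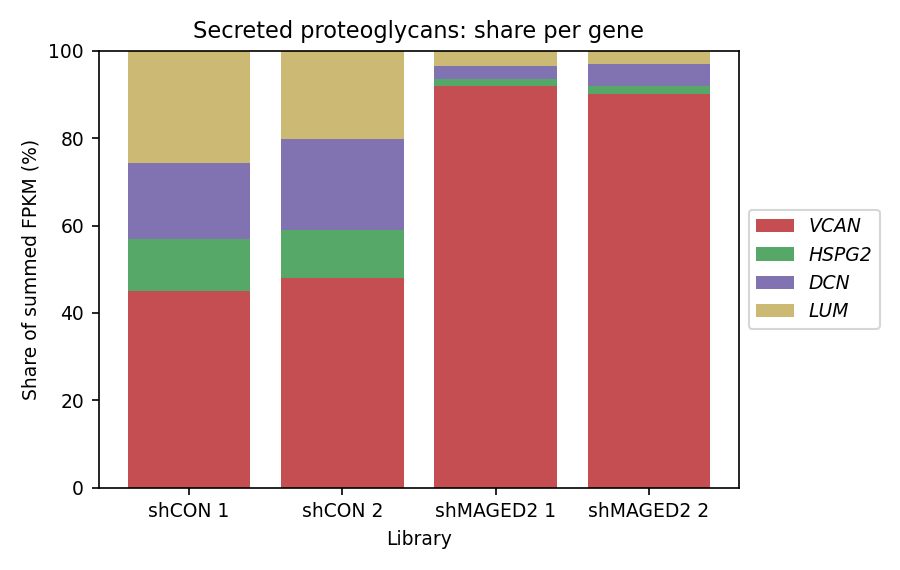
Share of each secreted proteoglycan gene of the set in their summed FPKM, in percent, stacked for each of the 4 libraries. VCAN fills 45.0% and 48.0% of the shCON bars and 92.0% and 90.2% of the shMAGED2 bars. BGN, at 0 in every library, is not drawn.

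At the cell surface, CSPG4 and SDC1 were higher in shMAGED2, SDC2 was lower, and GPC1 was not called. CSPG4 encodes NG2, a transmembrane chondroitin sulfate proteoglycan of oligodendrocyte precursors and pericytes (ENSG00000173546, chromosome 15, 75674322 to 75712848, minus strand). Counts of CSPG4 were 3031 and 2559 in the shCON pair against 4122 and 5510 in the shMAGED2 pair, or 86.9, 87.3, 140 and 150.1 CPM. The shCON libraries were nearly equal, and both knockdown libraries lay above them. CSPG4 rose from 87.1 ± 0.27 to 145 ± 7.14 CPM (SD, n = 2), 1.67-fold, a log2 change of 0.74 (SE 0.09; edgeR, Benjamini-Hochberg adjusted p = 0.00486). It missed the threshold without shCON replicate 1 (0.073) or 2 (0.0593), at log2 changes of 0.73 and 0.74.

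SDC1 encodes syndecan-1, a transmembrane heparan sulfate proteoglycan that is also a plasma cell and epithelial marker (ENSG00000115884, chromosome 2, 20200797 to 20225433, minus strand). Counts of SDC1 were 3425 and 2902 in the shCON pair against 4408 and 6516 in the shMAGED2 pair, or 98.2, 98.9, 149.7 and 177 CPM. Both knockdown libraries were above both controls, replicate 2 the further. SDC1 rose from 98.6 ± 0.56 to 164 ± 19.6 CPM (SD, n = 2), 1.66-fold, a log2 change of 0.73 (SE 0.11; edgeR, Benjamini-Hochberg adjusted p = 0.00873). Without shCON replicate 1 or 2 the adjusted p was 0.0864 and 0.0676 (edgeR, Benjamini-Hochberg).

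SDC2, syndecan-2, a relative of SDC1 typical of mesenchymal cells (ENSG00000169439, chromosome 8, 96493351 to 96611780, plus strand), moved the other way. Counts of SDC2 were 749 and 812 in the shCON pair against 366 and 606 in the shMAGED2 pair, or 21.5, 27.7, 12.4 and 16.5 CPM. In each group replicate 2 was the higher, and the groups did not overlap. SDC2 fell from 24.6 ± 4.40 to 14.5 ± 2.88 CPM (SD, n = 2), a log2 change of −0.76 (SE 0.21; edgeR, Benjamini-Hochberg adjusted p = 0.0457). This call was near the threshold and was lost with library size alone (0.0534), in both FPKM fits (0.0602 and 0.0633) and without shCON replicate 1 (0.0796) or 2 (0.281).

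GPC1 encodes glypican-1, a heparan sulfate proteoglycan held in the membrane by a lipid anchor (ENSG00000063660, chromosome 2, 240435671 to 240468078, plus strand). Counts of GPC1 were 1623 and 1591 in the shCON pair against 1127 and 1606 in the shMAGED2 pair, or 46.5, 54.2, 38.3 and 43.7 CPM. The knockdown libraries lay just under the controls. The log2 change was −0.30 (SE 0.13; edgeR, Benjamini-Hochberg adjusted p = 0.166), and the call was made in 1 of the 15 alternatives, without shMAGED2 replicate 2 (−0.40, adjusted p = 0.00445).

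The other syndecans and glypicans were measured as well. SDC3, a syndecan of neural tissue, had a log2 change of −3.50 and fell (SE 0.30; edgeR, Benjamini-Hochberg adjusted p = 0.00147), with 208 and 180 counts in shCON and 16 and 19 in shMAGED2. SDC4, the syndecan of focal adhesions, was at 142 and 166 CPM in shCON and at 71.0 and 123 CPM in shMAGED2, and was not called (−0.66, SE 0.25; edgeR, Benjamini-Hochberg adjusted p = 0.112). SDC1 made up 33.7% and 30.0% of the summed FPKM of the 4 syndecans in shCON and 60.9% and 51.8% in shMAGED2. SDC4 made up 59.1% and 61.9% in shCON and 34.8% and 44.0% in shMAGED2, so that SDC1 took its place as the syndecan with the highest FPKM. The ratio of SDC1 to SDC2 FPKM was 5.43 and 4.19 in shCON and 14.4 and 12.7 in shMAGED2. GPC6, a glypican, fell from 142 ± 2.97 to 67.0 ± 6.88 CPM, a log2 change of −1.08 (SE 0.11; SD, n = 2; edgeR, Benjamini-Hochberg adjusted p = 0.00233). GPC3 and GPC4 had 0 counts.

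CD44, the main cell-surface receptor for hyaluronan, carries chondroitin or heparan sulfate on some of its splice forms (ENSG00000026508, chromosome 11, 35138870 to 35232402, plus strand). It was by far the most abundant of the 10 transcripts. Counts of CD44 were 30807 and 26001 in the shCON pair against 36642 and 37253 in the shMAGED2 pair, or 883, 887, 1244 and 1015 CPM. Both knockdown libraries lay above the controls, but they differed from each other by more than the nearer of them differed from shCON. The log2 change was 0.35 (SE 0.12), and CD44 was not called (edgeR, Benjamini-Hochberg adjusted p = 0.0831). It was called by DESeq2 (0.0402), without a count filter (0.0489), and without shMAGED2 replicate 1 (0.20, adjusted p = 2.41e-05) or 2 (0.49, adjusted p = 6.6e-13). In FPKM, CD44 was at 259 and 204 in the shCON pair and at 294 and 293 in the shMAGED2 pair, so that the shCON pair was uneven on this scale and the shMAGED2 pair was even, the reverse of the CPM values. GENCODE 29 lists 26 coding transcripts of CD44, of 352 to 5732 bases, and gene counts do not separate them.

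**Figure D3:**
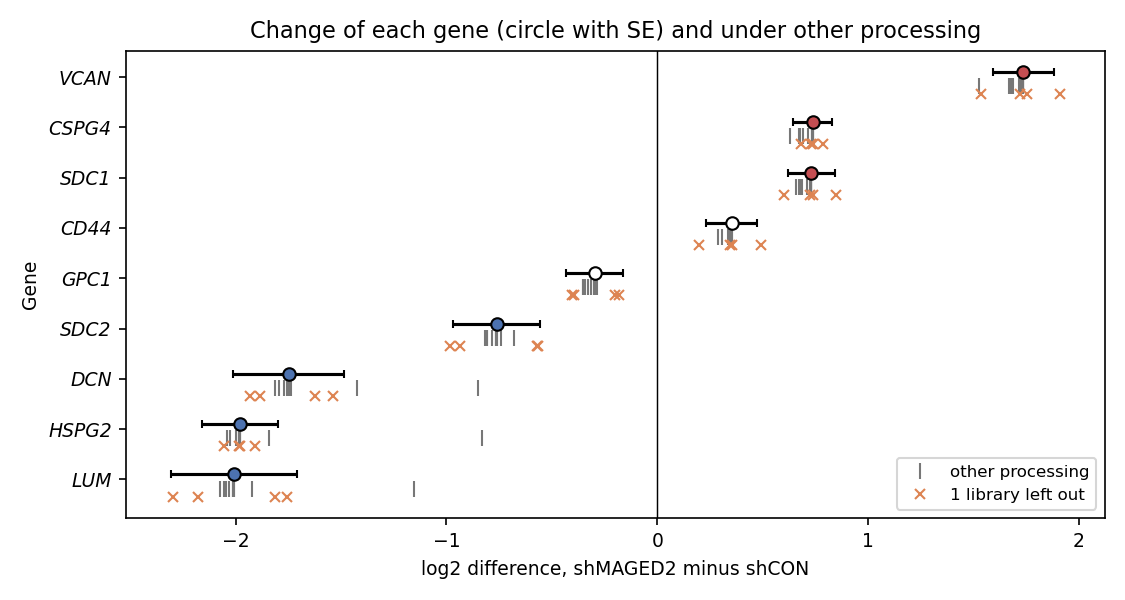
Log2 difference, shMAGED2 minus shCON, for each of the 9 genes: circles with SE bars are the edgeR estimates (red higher, blue lower, white not called), grey ticks the 11 fits with other processing and orange crosses the 4 fits with 1 library left out. Each gene stays on its side of 0 in every fit, from 1.53 to 1.91 for VCAN and from −2.30 to −1.15 for LUM.

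In shCON the order of levels per unit length was CD44 (231 ± 39.2 FPKM), SDC1 (30.3 ± 0.090), GPC1 (13.3 ± 1.42), CSPG4 (10.3 ± 0.028), SDC2 (6.41 ± 1.15), VCAN (5.24 ± 0.19), LUM (2.58 ± 0.46), DCN (2.15 ± 0.26) and HSPG2 (1.30 ± 0.095; SD, n = 2), with BGN listed at 0. LUM and DCN overlapped, and SDC2 and VCAN differed by about the SD of SDC2. In shMAGED2, CD44 (293 ± 0.62 FPKM) and SDC1 (48.8 ± 7.71) still led, followed by VCAN (17.0 ± 1.67) and CSPG4 (16.5 ± 1.61), whose values overlapped, then by GPC1 (10.4 ± 1.49) and SDC2 (3.65 ± 0.90). DCN (0.75 ± 0.23 FPKM) and LUM (0.61 ± 0.14) overlapped again, above HSPG2 (0.29 ± 0.015; SD, n = 2). By group means VCAN lay below GPC1, CSPG4 and SDC2 in shCON and above them in shMAGED2, though in shMAGED2 replicate 2 CSPG4 (17.7 FPKM) lay above VCAN (15.8). CD44 lay at the 98.7th percentile of mean FPKM over all genes tested in shCON, and VCAN went from percentile 43.1 to 72.4.

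The genes whose profile over the 4 libraries lay closest to that of VCAN were KIF15, a mitotic kinesin, TACC3, a spindle protein, and PLK4, a centriole kinase. Their Euclidean distances, on log2(CPM + 0.1) centred on each gene's mean, were 0.0065 to 0.043 among 11232 genes with at least 5 CPM. The closest to CD44 were CHMP4B, a subunit of the ESCRT-III membrane scission complex, ARPC2, a subunit of the Arp2/3 actin nucleator, and TNRC6A, a microRNA silencing protein, at 0.0113 to 0.0323. With only 4 libraries in 2 groups many genes share such a profile, and the distances are a description.

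Genes that build, bind and break down glycosaminoglycans were examined in 7 lists with 123 symbols, of which 122 matched the table and 90 were tested. Of these 15 rose and 11 fell (28.9%, against 23.9% of all genes tested), with a median log2 change of 0.09. The lists, too, were chosen with earlier results of these data known, so their shares called are a description. The balance of directions turned with the scaling, to 13 higher and 14 lower with upper-quartile factors and 12 higher and 13 lower with library size alone. Leaving out shCON replicate 1 or 2 gave 6 and 8 calls, leaving out shMAGED2 replicate 1 or 2 gave 50 and 49, and the FPKM fits gave 17 and 16. In each of the lists, as over all genes, fewer were called without an shCON library and more without an shMAGED2 library. Of the genes named by rule, SDC3, GPC6, HS3ST3A1, HMMR, TNFAIP6 and EZR were called in every alternative that tested them. SDC3 and TNFAIP6 met the 5 CPM filter only through their shCON libraries.

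**Figure D4:**
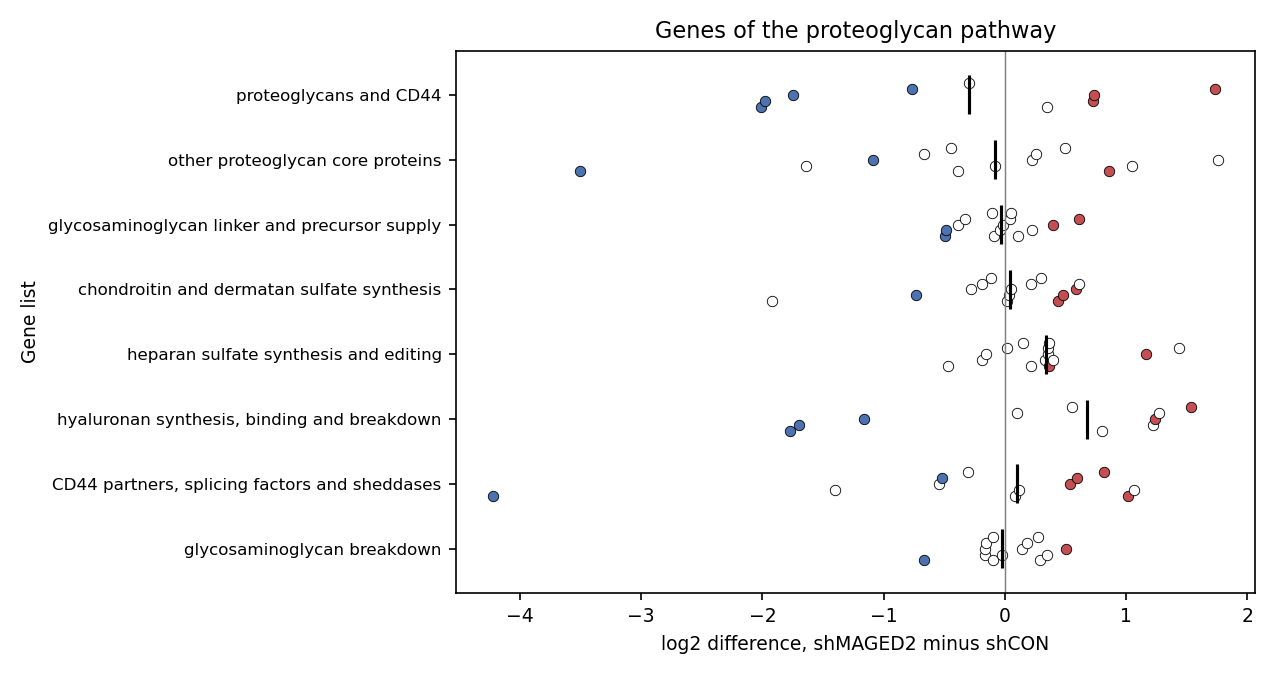
Log2 difference, shMAGED2 minus shCON, of every tested gene in the proteoglycan and CD44 set and in 7 related lists, with 1 point per gene (red higher, blue lower, white not called) and a bar at the list's median. Medians of the 7 lists run from −0.08 for other core proteins to 0.68 for the hyaluronan list.

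Of the 28 other core proteins, 13 were tested, of which 1 rose and 2 fell (23.1%, against 23.9% of all genes tested). The median log2 change was −0.08, and more were called without shMAGED2 replicate 1 or 2. Besides SDC3 and GPC6, which fell, SPOCK1, a secreted testican, rose from 81.6 ± 0.11 to 148.5 ± 32.9 CPM (log2 change 0.86, SE 0.16), a call lost without shCON replicate 1 or 2. AGRN, the basement membrane proteoglycan agrin, was at 108 CPM in both shCON libraries and at 110 and 144 in shMAGED2, and was not called. The lecticans ACAN and NCAN had 0 counts, and BCAN was at 6.21 to 6.74 CPM in all libraries.

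Of 14 genes that supply the linker and precursors of the chains, 2 rose and 2 fell (28.6%, against 23.9% of all genes tested, median −0.03). XYLT2, which adds the first sugar to the core protein, rose by 0.61 (SE 0.14), and SLC35B2, the Golgi carrier of the sulfate donor, by 0.40 (SE 0.11). UGDH, which makes UDP-glucuronic acid, fell by 0.49 (SE 0.10), and the sulfate transporter SLC26A2 by 0.49 (SE 0.12) on the log2 scale. FAM20B, the kinase of the linker xylose, was not called (0.11, SE 0.10). Without shCON replicate 1 or 2 edgeR called 0 genes of this list (1 and 3 at an unadjusted p under 0.05), and 7 without shMAGED2 replicate 1; DESeq2 on all libraries called 4, and the FPKM fits called 2. SLC35B2 was called in 6 of 15 alternatives and lost, among others, with upper-quartile factors and with the replicate block.

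Of 14 tested genes of chondroitin and dermatan sulfate synthesis, 3 rose and 1 fell (28.6%, against 23.9% of all genes tested, median 0.045). CSGALNACT2, which starts the chondroitin chain, fell from 125 ± 0.56 to 74.9 ± 1.12 CPM (log2 change −0.74, SE 0.09). The chain polymerase CHSY1 rose by 0.44 (SE 0.11) and the sulfotransferases CHST3 and CHST11 by 0.59 (SE 0.12) and 0.48 (SE 0.11). CHPF2, a polymerizing partner, was not called (−0.28, SE 0.12). Without shCON replicate 1 the list had 0 calls by edgeR (3 at an unadjusted p under 0.05), against 4 by DESeq2 on all libraries; without shCON replicate 2 it had 1, without shMAGED2 replicate 1 it had 8, and in the FPKM fits it had 1.

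Of 14 tested genes of heparan sulfate synthesis and editing, 2 rose and 0 fell by edgeR (14.3%, against 23.9% of all genes tested, median 0.34). By edgeR 1 was lower at an unadjusted p under 0.05, and DESeq2 called 0 lower. Upper-quartile factors and library size alone each gave 1 higher and 1 lower, and 1 gene was lower with no count filter and with the 5 CPM filter. HS3ST3A1, a 3-O-sulfotransferase, rose from 43.3 ± 2.05 to 96.9 ± 3.26 CPM (log2 change 1.16, SE 0.10; SD, n = 2; edgeR, Benjamini-Hochberg adjusted p = 0.00159). NDST1, which begins the sulfation of the chain, rose by 0.37 (SE 0.09) and was called in 8 of 15 alternatives. The polymerase gene EXT1 was at 100.0 to 106 CPM in shCON and at 125 to 140 CPM in shMAGED2 and was not called (0.36, SE 0.10; edgeR, Benjamini-Hochberg adjusted p = 0.0543). The list had 1 call without shCON replicate 1 or 2, with the replicate block and in the FPKM fits, 5 without a count filter, and 7 and 8 without shMAGED2 replicate 1 or 2.

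Of 10 tested genes of hyaluronan synthesis, binding and breakdown, 2 rose and 3 fell (50%, against 23.9% of all genes tested, median 0.68). HAS2, the hyaluronan synthase with the highest count here, was at 10.5 and 11.2 CPM in shCON and at 5.20 and 4.49 in shMAGED2, and fell by 1.16 on the log2 scale (SE 0.20). TNFAIP6, which links hyaluronan to other matrix proteins, fell by 1.70 (SE 0.26), and CEMIP, a hyaluronan-degrading protein, by 1.77 (SE 0.36). HMMR, a hyaluronan-binding protein that also acts at the mitotic spindle, rose from 29.4 ± 2.61 to 85.4 ± 12.5 CPM (log2 change 1.54, SE 0.15; SD, n = 2). The fifth call was HYAL3, a hyaluronidase relative, which rose by 1.24 (SE 0.28). Without shCON replicate 1 the list had 2 calls, HAS2, CEMIP and HYAL3 being lost, and without shCON replicate 2 it had 3, HAS2 and HYAL3 being lost.

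Of 12 genes of CD44 partners, splicing factors and sheddases, 4 rose and 2 fell (50%, against 23.9% of all genes tested, median 0.10). The genes of the ERM family, whose proteins tie the tail of CD44 to actin, rose: EZR from 80.1 ± 7.61 to 162 ± 19.3 CPM, RDX from 62.1 ± 0.37 to 93.6 ± 2.40 and MSN from 499 ± 15.7 to 879 ± 197 (SD, n = 2). Their log2 changes were 1.02 (SE 0.13), 0.59 (SE 0.10) and 0.82 (SE 0.16), with edgeR Benjamini-Hochberg adjusted p-values of 0.00453, 0.00977 and 0.0174. NF2, the ERM-related merlin, rose by 0.54 (SE 0.11), named after its value was seen. ADAM17, a sheddase of CD44, fell by 0.52 (SE 0.10), while ADAM10 (−0.30, SE 0.09), MMP14 (0.08, SE 0.09) and the ligand SPP1 (0.12, SE 0.17) were not called. ESRP1, a splicing factor that favours the long forms of CD44, was also named after its value was seen. It had 60 counts in shCON and 3 in shMAGED2, a ratio of 0.0485 with an exact 95% counting interval of 0.00973 to 0.149. That interval covers counting error only. ESRP1 met the count filter of the main test only through its shCON libraries, so its call adds no separate support. ESRP2, the other splicing factor of the list, went the other way. It had 18 and 16 counts in shCON and 28 and 47 in shMAGED2 and was not called (1.07, SE 0.53). With either shCON library left out (replicate 1 or replicate 2), EZR was the 1 gene of the list still called.

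Of 13 tested genes of glycosaminoglycan breakdown, 1 rose and 1 fell (15.4%, against 23.9% of all genes tested, median −0.03). GUSB, the lysosomal beta-glucuronidase, rose by 0.51 (SE 0.12), and IDUA, the alpha-iduronidase, fell by 0.66 (SE 0.16) on the log2 scale. IDS, GLB1 and HEXA, all at or above 100 CPM on average, were not called, with changes of −0.16 to 0.18. The list had 0 calls by edgeR without shCON replicate 1 or 2 (2 and 0 at an unadjusted p under 0.05), against 2 by DESeq2 on all libraries; without shMAGED2 replicate 1 or 2 it had 6 and 8, and with the replicate block it had 1.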

How the data were processed

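Deposited by the authors were raw counts for each gene, in whole numbers, and FPKM values. The submitters' processing notes list HISAT2, StringTie, SAMtools and hg38 without roles or settings; the labels' protocols name a NEBNext Ultra kit. The gene annotation, strand use and handling of reads shared between genes are not stated there, which leaves counts of overlapping genes uncertain.

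The main test was that of edgeR 4.0.16 under R 4.3.3 (filterByExpr by group, TMM, robust quasi-likelihood fit with group as its only term, two-sided, Benjamini-Hochberg over 15293 genes, threshold 0.05). SE was derived from the F statistic. Its common coefficient of biological variation was 0.167, and 2 residual degrees of freedom remained. The 15 alternatives were other scalings, DESeq2 1.42.0, limma 3.58.1 (voom, and log2(FPKM + 1) or log2(FPKM + 0.1) for genes with FPKM of at least 1 in 2 libraries), other filters (none, or 5 CPM in 2 libraries), a fit not made robust, the replicate number as a block, and 1 library omitted at a time. Coordinates are 1-based, from GENCODE 29 on hg38.

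The 10 genes and the lists, 7 of the pathway and 6 of cell markers, were chosen with earlier results of these data known. Named were all 10 genes, the hairpin targets, up to 4 genes per pathway list with the smallest p among those called, list genes of at least 100 CPM on average, and the 3 genes nearest in profile to CD44 and to the other gene with the smallest p. Further genes, the markers among them, were named after their values were seen. Some genes that this rule names are not reported here.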

Additional observations from a re-analysis of the deposited data

How the results depend on the processing

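None of the 9 tested genes of the set changed direction in any of the 15 alternatives. VCAN, HSPG2 and LUM passed in all 15, DCN in 14, CSPG4 and SDC1 in 13, SDC2 in 10, CD44 in 4 and GPC1 in 1. For HSPG2, DCN and LUM these include the FPKM fits and the 5 CPM fit, whose filters they met only through shCON. With 1 library left out, 3 to 9 genes of the set, 6 to 50 pathway genes and 1100 to 7447 of all genes were called; the low counts came without an shCON library, the high ones without an shMAGED2 library. The FPKM fits called 17 and 16 pathway genes, against 26, among fewer genes tested; the part of the scale was not tested. Among pathway genes not called, SPP1 ranged from −0.16 to 0.34 and GLB1 from −0.114 to 0.066 (0.006 without shMAGED2 replicate 2) when 1 library was left out. With the replicate number as a block, 7 genes of the set, 24 pathway genes and 3336 of all genes were called, against 7, 26 and 3649. Deviations from the group means correlated at −0.018 between same-numbered libraries, and no label says what a shared number stands for. Depth limits what can be said of BGN; the 2 libraries per group limit the rest.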

Other observations

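The deposited FPKM values are not a fixed multiple of the deposited counts for every gene. For each gene the ratio of count to FPKM was divided by the median of that ratio in its library, and the highest library was set against the lowest. The median of this quotient was 1.04 over 11485 genes whose FPKM reached 1 in each library. It was 1.01 for CSPG4, SDC1, SDC2 and GPC1, 1.02 for LUM, 1.08 for VCAN and 1.22 for HSPG2. For CD44 it was 1.28, above 93.7% of those genes, and for DCN, at a low FPKM, 1.95, above 99.5%. In the shCON pair the relative ratio of CD44 was 1.10 and 1.41, and in the shMAGED2 pair 1.28 and 1.12. For DCN the shCON pair had 1.52 and 0.97, and the shMAGED2 pair 1.36 and 0.78. Each gene thus had a high and a low library in both groups, and the between-group difference of the ratio was −0.06 for CD44 and −0.22 for DCN on the log2 scale. GENCODE 29 lists 19 coding transcripts of DCN, of 228 to 7156 bases. FPKM levels of CD44 and DCN in single libraries therefore carry this additional spread, and its source was not tested.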
